A study of Homo sapiens with 6 samples.

Results

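The genes described here are 10 components of the Notch pathway: the receptors NOTCH1, NOTCH2 and NOTCH3, the ligands JAG1, JAG2 and DLL1, and the target genes HES1, HEY1, HEYL and NRARP. They were taken by gene symbol from a table of 37887 gene rows, of which 24406 held at least 1 count, and each of the 10 had a single row. RNA was sequenced from MDA-MB-436, a cell line of triple-negative breast cancer with mutant BRCA1, which had been stably transduced with a tetracycline-inducible vector coding for 1 shRNA against MUC1. MUC1-C is the transmembrane subunit of the mucin MUC1, and the comparison asked which transcripts changed when it was silenced. Control cells received 0.1% DMSO as vehicle and silenced cells received 500 ng/ml doxycycline (DOX), which switches the hairpin on; these groups are called vehicle and shMUC1. Both groups therefore carried the vector, and each was cultured in triplicate, for 6 libraries in all. By its sample titles the control would be a control shRNA, but by its treatment label and the series design it was the same inducible cells with vehicle, and the groups follow the treatment label. No DOX-treated library with a control hairpin was analysed here, so DOX and silencing cannot be told apart, and the labels give no length of treatment for this line.

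Notch signaling passes between neighboring cells. A ligand of the Jagged or Delta-like family on one cell binds a Notch receptor on the next. The receptor is then cut by the metalloprotease ADAM10 and by the gamma-secretase complex. The freed intracellular domain enters the nucleus, where it joins the DNA-binding protein RBPJ and a Mastermind-like (MAML) coactivator to switch on genes such as the HES and HEY transcriptional repressors and NRARP, a feedback inhibitor. In breast cancer, the pathway is known for its part in cell fate and in stem-like cells. Transcript levels of these genes measure RNA and not receptor cleavage.

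Levels are given as counts per 1000000 counts (CPM) on scaled library sizes, as the mean ± SD of 3 libraries. Differences are log2 fold changes of shMUC1 over vehicle with a standard error (SE) and were tested by edgeR's quasi-likelihood method. A gene was called when its Benjamini-Hochberg adjusted p over the 15355 genes tested was under 0.05. Library totals ran from 18678307 to 27825546 counts. The targeted gene MUC1 was lower in each shMUC1 library, at 3.88 ± 0.401 (SD, n = 3) CPM with vehicle and 2.14 ± 0.412 (SD, n = 3) with DOX (log2 fold change -0.84, SE 0.214, adjusted p = 0.00119). Summed markers of cell types also moved with the groups. The 7 epithelial markers ran from 545 to 581.2 CPM with vehicle and from 1087 to 1129 CPM with DOX, with 3 members higher and 2 lower. The 4 mesenchymal-type markers ran from 2632 to 2734 CPM and from 2369 to 2504 CPM, respectively, with CAV1 higher and VIM, ZEB1 and AXL lower. Among the epithelial markers, KRT19 and RAB25 had at most 4 counts in any library and 0 in each shMUC1 library. Of the receptors that define the triple-negative class, ESR1 and PGR were too low to test, and ERBB2 was detected in all libraries and fell by 0.20 on the log2 scale (adjusted p = 0.0074). The 3 blood markers summed to at most 0.931 CPM and the 3 endothelial markers to at most 2.096 CPM in any library, and CD3E was the marker of these lists at 0 in all 6. At these low levels the blood sum ran from 0.0911 to 0.387 CPM with vehicle and from 0.537 to 0.931 CPM with DOX. The endothelial sum ran from 1.741 to 2.096 CPM and from 0.543 to 0.698 CPM, respectively. The part of these shifts in the Notch results was not tested.

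All 10 Notch genes passed the filter on low counts. NOTCH1, NOTCH2, NOTCH3, DLL1 and HEY1 fell, JAG1 and HEYL rose, and JAG2, HES1 and NRARP did not pass the test. These 5 of 10 genes called lower stand beside 23.6% of all genes tested, and the 2 of 10 called higher beside 25.2%. With a fold change over 2 required as well, NOTCH3 and DLL1 were called lower and no member higher, against 3.74% and 2.21% of all genes tested, respectively. DLL1, which is in both of these counts of lower genes, passed the filter only through the vehicle libraries, so that it had to differ, and the counts without it are 4 and 1. The CPM values of the groups did not overlap for 8 of the 10 genes, against 54.8% of all genes tested. These 8 include DLL1, which had to differ for the same reason. The median log2 fold change of the 10 genes, DLL1 included, was -0.27, against 0.000583 over all genes tested. Since these are whole cultures, fewer cells of a type and less RNA per cell cannot be told apart.

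**Figure D1:**
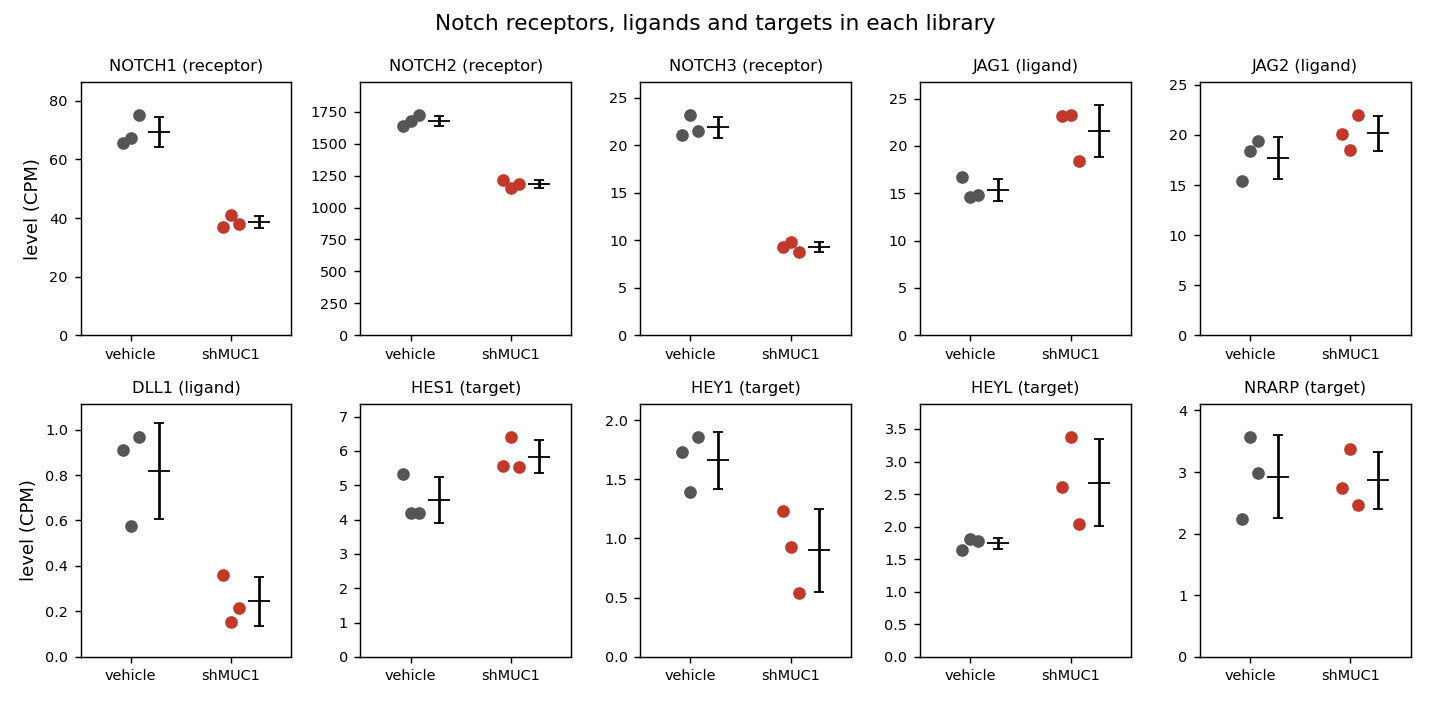
Level of each of the 10 Notch genes in CPM (vertical axes from 0, 1 scale per panel) in the 3 vehicle (grey) and 3 shMUC1 (red) libraries; each point is 1 library and the bars give the mean ± SD. The receptors NOTCH1, NOTCH2 and NOTCH3 lie lower in every shMUC1 library, whereas the groups overlap for JAG2 and NRARP.

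The 3 receptors measured at a testable level all fell. NOTCH1 (chr9:136494433-136545786, minus strand, GRCh38, GENCODE 29), a receptor with roles in many tissues, had 65.5, 67.4 and 75.1 CPM in the vehicle libraries and 37.0, 40.9 and 37.8 CPM in the shMUC1 libraries. The lowest vehicle library stood well above the highest shMUC1 library, and the mean fell from 69.3 ± 5.09 (SD, n = 3) to 38.6 ± 2.06 (SD, n = 3) CPM. This gave a log2 fold change of -0.85 (SE 0.0595, adjusted p = 1.04e-14), or a 1.80-fold lower level.

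NOTCH3 (chr19:15159038-15200981, minus strand), a receptor best known from the smooth muscle of vessels, had the largest fall of the receptors. It had 21.1, 23.2 and 21.5 CPM with vehicle and 9.29, 9.82 and 8.81 CPM with DOX. Each group was tight and the groups were far apart, with means of 21.9 ± 1.10 (SD, n = 3) and 9.31 ± 0.504 (SD, n = 3) CPM. The log2 fold change was -1.23 (SE 0.0973, adjusted p = 2.45e-13), a 2.35-fold lower level.

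NOTCH2 (chr1:119911553-120069626, minus strand) fell least among the receptors. Its levels were 1640, 1676 and 1723 CPM with vehicle and 1214, 1154 and 1187 CPM with DOX, again without overlap. The log2 fold change was -0.50 (SE 0.0274, adjusted p = 7.52e-18). NOTCH2 has near-identical partial copies in the genome, so its count is uncertain to the extent that reads were shared among them. Of these, NOTCH2NLC fell from 14.2 ± 0.206 (SD, n = 3) to 8.99 ± 1.39 (SD, n = 3) CPM (log2 fold change -0.67, adjusted p = 6.87e-06). NOTCH2NLA, with 4 to 19 counts per library, did not pass the test (adjusted p = 0.199), and NOTCH2NLB, with 1 to 5 counts, was not tested. The copies therefore held few counts beside NOTCH2 itself, which had from 22097 to 44546 per library. These counts do not show how many reads were shared among NOTCH2 and its copies or lost from them. The remaining receptor of the family, NOTCH4, had no count in any library.

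The ligands did not move together. JAG1 (chr20:10637684-10673999, minus strand), a Jagged-family ligand, rose from 16.7, 14.6 and 14.8 CPM to 23.1, 23.2 and 18.4 CPM. The third shMUC1 library was the lowest of its group and still above every vehicle library. Its log2 fold change was 0.50 (SE 0.0958, adjusted p = 3.37e-05). JAG1 shares exon sequence with the gene AL050403.2 on the opposite strand, and the strand setting of the counting was not given in the sources used here.

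JAG2 (chr14:105140981-105168824, minus strand), the other Jagged ligand, had 15.4, 18.4 and 19.4 CPM with vehicle and 20.1, 18.5 and 22.0 CPM with DOX. The groups overlapped, with a log2 fold change of 0.18, a 95% interval from -0.0134 to 0.37 and an adjusted p of 0.119. Its exons overlap AL512356.1 on the same strand, so the count is uncertain.

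DLL1 (chr6:170282206-170306565, minus strand), a Delta-like ligand, was scarce. It had 20, 14 and 25 counts in the vehicle libraries and 10, 4 and 4 in the shMUC1 libraries, or 0.818 ± 0.213 (SD, n = 3) and 0.244 ± 0.106 (SD, n = 3) CPM. The groups did not overlap, and DLL1 fell by 1.70 on the log2 scale (SE 0.507, adjusted p = 0.00534), with a 95% interval from -2.73 to -0.67. DLL1 passed the filter on low counts only through the vehicle libraries, as none of the shMUC1 libraries reached the cutoff of 0.401 CPM. Its fold change and p are therefore a description of a gene that could enter the test only by being high with vehicle.

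**Figure D2:**
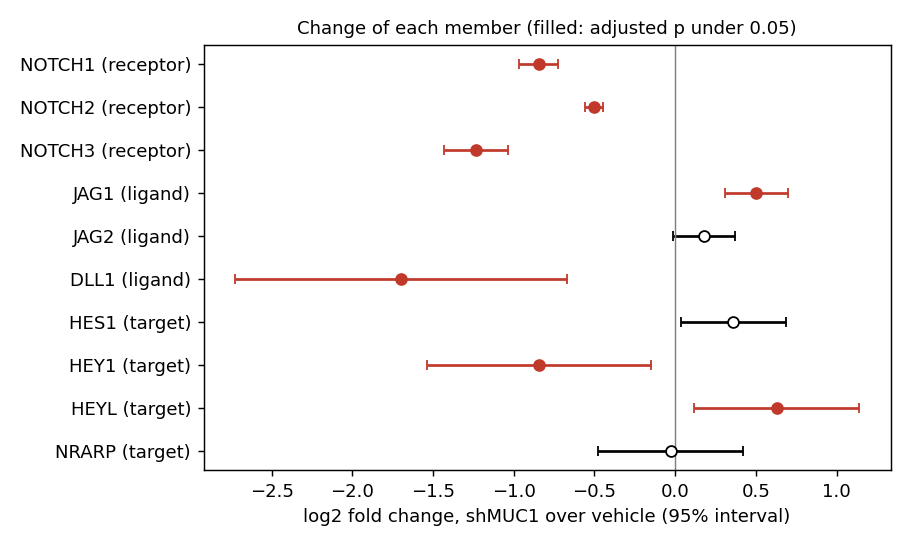
Log2 fold change of shMUC1 over vehicle for each of the 10 Notch genes, with its 95% interval; filled points have an adjusted p under 0.05 and open points do not. The intervals of the 3 receptors lie well below 0 and are narrow, that of DLL1 runs from -2.73 to -0.67, and those of JAG2 and NRARP include 0.

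RBPJ, the factor that brings the Notch complex to DNA, recognizes a core that reads TGGGAA, often as GTGGGAA. These letters were searched on both strands of the 300 bases around the start sites, 250 before and 50 after, in the RefSeq promoters of GRCh38.p14. Of the 10 members, 8 had a promoter in the table, and DLL1 and HEY1 did not. TGGGAA was found in HES1 and HEYL and not in NOTCH1, NOTCH2, NOTCH3, JAG1, JAG2 or NRARP, and 24.0% of all 35116 promoters held it. GTGGGAA, which contains the shorter word, was in the same members and in 6.25% of all promoters. HES1 and HEYL each held 2 matches of TGGGAA, as did 3.80% of all promoters with 2 or more. The promoters of HES1 (chr3:194135898-194136197, plus strand) and HEYL (chr1:39639594-39639893, minus strand) are shown 5′ to 3′ because they are the members that held the core, with the matches in capitals.
HES1: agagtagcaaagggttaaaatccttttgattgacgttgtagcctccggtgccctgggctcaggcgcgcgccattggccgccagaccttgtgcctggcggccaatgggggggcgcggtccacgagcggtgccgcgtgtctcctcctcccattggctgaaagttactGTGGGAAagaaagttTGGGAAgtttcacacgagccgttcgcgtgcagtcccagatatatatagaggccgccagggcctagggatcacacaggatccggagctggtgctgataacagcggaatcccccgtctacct
HEYL: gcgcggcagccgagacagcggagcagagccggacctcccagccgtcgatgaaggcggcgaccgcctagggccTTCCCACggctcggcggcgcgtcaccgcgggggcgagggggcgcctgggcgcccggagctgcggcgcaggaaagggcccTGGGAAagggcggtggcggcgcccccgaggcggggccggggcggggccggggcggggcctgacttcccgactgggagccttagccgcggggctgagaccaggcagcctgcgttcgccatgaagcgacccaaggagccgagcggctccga

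In HES1, both matches lie on the strand of the gene, at 84 and 70 bases before the start. In HEYL, 1 match lies on the opposite strand and so reads TTCCCAC above, and the other lies 99 bases before the start. These distances are counted from the start site of the RefSeq promoter. In the GENCODE gene model of HEYL, the start lies upstream of the whole window, so both matches lie after that start. The NOTCH1 window lies wholly upstream of the start in its GENCODE model, so that start was not searched. A further word, CACGTG, which HES and HEY proteins can bind, was in none of the 8 member promoters and in 7.26% of all promoters. Both forms of the core were also in target genes outside the 10, with 1 match of TGGGAA in HES4 and 2 each in HES5 and HEY2, and 1 of the 5 RBPJ promoters in the table held 2. Of these target genes, HES4 was called higher, HEY2 did not pass the test and HES5 had no count. The core was not confined to targets. SPEN, a corepressor, held both forms. TGGGAA without GTGGGAA was in at least 1 promoter of POGLUT1, LFNG, NEURL1, FURIN, PSENEN, DTX2 and AAK1. A match of letters is a description of the window and not evidence of binding.

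The target genes split in direction. HES1 (chr3:194136145-194138732, plus strand), a repressor that is an early Notch target, had 5.33, 4.18 and 4.18 CPM with vehicle and 5.57, 6.40 and 5.53 CPM with DOX. The groups did not overlap, but HES1 did not pass the test (log2 fold change 0.36, 95% interval 0.0379 to 0.684, adjusted p = 0.0591). Without vehicle replicate 1, the highest of its group, the log2 fold change of HES1 was 0.48 and it passed (adjusted p = 0.0239).

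HEYL (chr1:39624153-39639945, minus strand), a HEY-family repressor, had 36, 44 and 46 counts with vehicle and 72, 87 and 38 counts with DOX, or 1.74 ± 0.0884 (SD, n = 3) and 2.67 ± 0.67 (SD, n = 3) CPM. The third shMUC1 library has the fewest total counts, and on the CPM scale, at 2.04, it was still above the highest vehicle library at 1.80. HEYL rose by 0.63 on the log2 scale (SE 0.253, adjusted p = 0.0378). The call was lost with DESeq2 (adjusted p = 0.0633), with the replicate number as a block (adjusted p = 0.0541) and without any 1 of the vehicle libraries, shMUC1 replicate 1 or shMUC1 replicate 2. The lowest value, without shMUC1 replicate 2, was 0.43 (adjusted p = 0.234).

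HEY1 (chr8:79764010-79767863, minus strand), a repressor of the same family, went the other way. It had 38, 34 and 48 counts with vehicle and 34, 24 and 10 counts with DOX, or 1.66 ± 0.239 (SD, n = 3) and 0.899 ± 0.347 (SD, n = 3) CPM. No shMUC1 library reached the lowest vehicle library in CPM, and HEY1 fell by 0.84 on the log2 scale (SE 0.342, adjusted p = 0.0395). That call too was lost with DESeq2 (adjusted p = 0.0543) and without vehicle replicate 1 or 3 or shMUC1 replicate 2 or 3, with a value of -0.61 (adjusted p = 0.157) without shMUC1 replicate 3.

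NRARP (chr9:137300482-137302251, minus strand), a target that limits Notch signaling, had 2.23, 3.57 and 2.98 CPM with vehicle and 2.75, 3.38 and 2.47 CPM with DOX. The groups overlapped fully, with a log2 fold change of -0.03 and an adjusted p of 0.932. The 95% interval from -0.475 to 0.42 covers changes in either direction.

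Dividing CPM by the merged exon length in kilobases allows genes to be compared with each other. With vehicle, NOTCH2 was by far the highest, at 99.9 ± 2.48 (SD, n = 3) CPM per kilobase, followed by NOTCH1 at 6.68 ± 0.49 (SD, n = 3). JAG2, NOTCH3 and HES1 came next at 2.77, 2.33 and 2.21 CPM per kilobase, where each neighbor overlapped the next over the 3 libraries. NRARP and JAG1, both at 1.65 CPM per kilobase, overlapped as well, as did HEY1 at 0.514 and HEYL at 0.476. DLL1 was the lowest, at 0.253 CPM per kilobase.

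With DOX, NOTCH2 at 70.5 and NOTCH1 at 3.72 CPM per kilobase were still first and second, and DLL1, at 0.0756, was still last. NOTCH3, at 0.991 CPM per kilobase, stood in place 7 instead of place 4, below HES1, JAG1 and NRARP, and JAG1, at 2.32, stood in place 5 instead of 7. Of neighbors in the order with DOX, JAG2 and HES1 were the pair that overlapped. The places between NOTCH1 and DLL1 depended on the gene length used: with the length of the longest transcript, NOTCH3 moved from place 6 to 7 and JAG1 from 5 to 4. With that length, NOTCH1 was still second by its mean with DOX. Its lowest shMUC1 library, at 3.98 CPM per kilobase, lay under the highest of HES1, at 4.06.

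Among the receptor transcripts, NOTCH2 had a higher share in each shMUC1 library than in any vehicle library. Its share of the per-kilobase level of the 3 receptors was 91.7% ± 0.221 (SD, n = 3) with vehicle and 93.7% ± 0.445 (SD, n = 3) with DOX, a difference of 2.005 percentage points. The shares of NOTCH1 went from 6.13% to 4.95% and those of NOTCH3 from 2.14% to 1.32%. Each of these 3 comparisons gave p = 0.1 in a two-sided exact permutation test, the smallest p that 3 against 3 libraries allow, and the shares are not independent of each other. JAG1 made up 35.4% ± 4.09 (SD, n = 3) of the per-kilobase level of the 3 ligands with vehicle and 41.8% ± 5.10 (SD, n = 3) with DOX (exact permutation p = 0.2). All these shares used the merged exon length and depend on it. With the longest transcript, vehicle levels per kilobase were 147 instead of 99.9 for NOTCH2 and 7.45 instead of 6.68 for NOTCH1. They were 2.58 instead of 1.65 for JAG1 and 3.04 instead of 2.77 for JAG2. The ligand total includes DLL1, which passed the filter only through the vehicle libraries, and leaves out DLL3, at 4.09 CPM with vehicle.

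**Figure D3:**
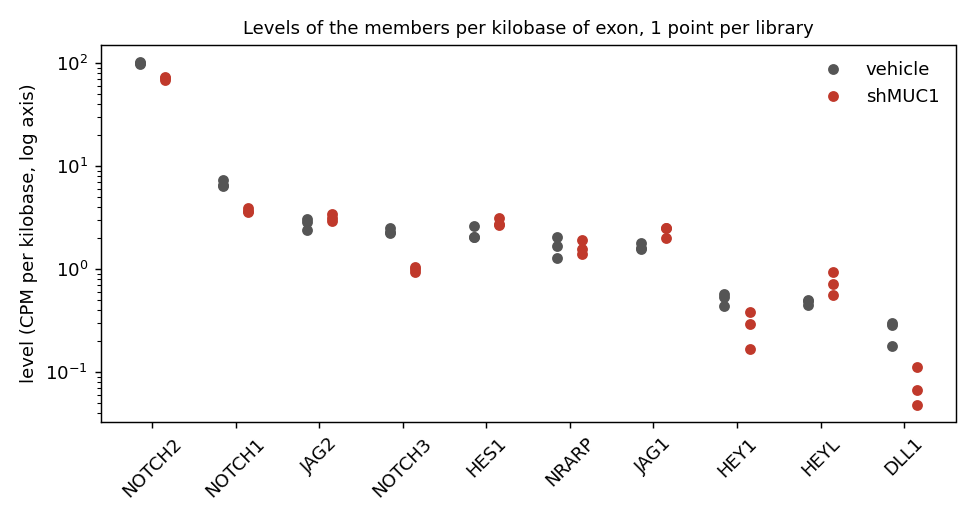
Level of each Notch gene in CPM per kilobase of merged exon on a log axis, 1 point per library, with vehicle in grey and shMUC1 in red; genes are ordered by their vehicle mean. NOTCH2 lies far above the rest, at 99.9 with vehicle and 70.5 with DOX, and NOTCH3 drops below HES1, NRARP and JAG1.

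A wider list of 52 other Notch pathway genes was read by role. Of these, 48 were tested, 13 rose, 14 fell and 21 did not pass the test, with a median log2 fold change of 0.04. Past a fold change over 2, DTX4 rose and DTX1, MAML2 and MAML3 fell. Both counts of genes that fell include DTX1 and MAML3, which would not have passed the filter on low counts with their shMUC1 libraries alone. The shares called lie near the 25.2% higher and 23.6% lower of all genes tested, and the counts by role below, each of 10 genes or fewer, are given as descriptions to be read against the same shares. NOTCH4, HES5, DLK1 and MFNG were not tested, the first pair with no count in any library.

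In the nuclear complex, 4 of 7 genes were called lower, MAML3 among them, and 2 higher, against 23.6% and 25.2% of all genes tested. RBPJ fell from 310 ± 9.66 (SD, n = 3) to 209.88 ± 4.28 (SD, n = 3) CPM, a log2 fold change of -0.56 (SE 0.0342, adjusted p = 1.70e-16), and no library of one group overlapped the other. MAML2, a coactivator of the Mastermind-like family, fell from 21.2, 24.1 and 20.2 CPM to 10.3, 10.5 and 7.79 CPM (log2 fold change -1.18, SE 0.106, adjusted p = 7.61e-12). MAML3, of the same family, had 38, 31 and 40 counts with vehicle and 16, 26 and 2 with DOX (log2 fold change -1.34, SE 0.42, adjusted p = 0.00771), and it was not called without shMUC1 replicate 3, at -0.93 (adjusted p = 0.0535), whereas its value without shMUC1 replicate 2 was -1.99. The 2 counts lie under the floor of 3 counts. With its shMUC1 libraries alone, MAML3 would not have passed the filter on low counts, as 2 of them reached the cutoff, against 3 with vehicle. Its fold change and p are therefore a description. MAML1, the third of the family, rose from 160 ± 4.79 (SD, n = 3) to 181 ± 2.96 (SD, n = 3) CPM, a log2 fold change of 0.18 (adjusted p = 0.000128), and is named here after its values were seen. The Mastermind-like genes thus split, with MAML2 and MAML3 lower and MAML1 higher.

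Among genes for receptor cleavage, 3 of 9 were called higher and 1 lower, near the shares of all genes tested, and 5 did not pass. ADAM10, the protease that makes the first cut after ligand binding, had a log2 fold change of 0.04 (adjusted p = 0.394). NCSTN, which codes for the gamma-secretase subunit nicastrin, rose from 243 ± 9.10 (SD, n = 3) to 304 ± 8.98 (SD, n = 3) CPM (log2 fold change 0.32, adjusted p = 6.41e-10). Of 4 genes tested for the sugar modification of receptors, 2 fell, against 23.6% of all genes tested. They were led by LFNG, a fringe glycosyltransferase, from 9.18 ± 0.359 (SD, n = 3) to 5.67 ± 0.354 (SD, n = 3) CPM (log2 fold change -0.69, adjusted p = 2.97e-05).

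Of 4 ligand ubiquitination genes, 1 was called lower, against 23.6% of all genes tested, and the other 3 did not pass. The gene called, NEURL1B, an E3 ligase, fell from 78.5 ± 0.891 (SD, n = 3) to 51.3 ± 0.993 (SD, n = 3) CPM (log2 fold change -0.61, adjusted p = 4.74e-13). Of the other ligands, DLK2, a Delta-like protein that lacks the domain for receptor activation, rose from 1.17 ± 0.201 (SD, n = 3) to 2.28 ± 0.554 (SD, n = 3) CPM (log2 fold change 0.95, adjusted p = 0.0064). This call was lost without shMUC1 replicate 2, at 0.74 (adjusted p = 0.0685). The target CCND1, which codes for cyclin D1, fell from 278 ± 6.74 (SD, n = 3) to 226 ± 4.39 (SD, n = 3) CPM (log2 fold change -0.30, adjusted p = 2.22e-09). The corepressor TLE4 fell by 0.30 on the log2 scale (adjusted p = 6.34e-08), while 3 of the 8 corepressor genes rose, against 25.2% of all genes tested.

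The Deltex genes code for E3 ligases, some of which act on Notch trafficking, and they moved in both directions. DTX1, often used as a Notch target, had 36, 22 and 36 counts with vehicle and 12, 8 and 4 with DOX (log2 fold change -1.97, SE 0.437, adjusted p = 0.000259). As with DLL1, the filter was passed through the vehicle libraries, since 1 shMUC1 library reached the cutoff of 0.401 CPM, so the value is a description. DTX4 rose from 4.45 ± 0.447 (SD, n = 3) to 11.7 ± 1.27 (SD, n = 3) CPM (log2 fold change 1.39, adjusted p = 4.91e-11). DTX3L rose from 205 ± 4.89 (SD, n = 3) to 314 ± 12.1 (SD, n = 3) CPM (log2 fold change 0.62, adjusted p = 2.37e-17) and shares exon sequence with PARP9 on the opposite strand. Such an overlap on the opposite strand was also annotated for NCSTN, DLK2, NEURL1B, CCND1, DTX4, MAML2, MAML3 and ADAM10. An overlap on the same strand was annotated for TLE4 and for the targeted gene MUC1, the latter with AL713999.1. The counts of all these genes carry the uncertainty given for JAG1 and JAG2.

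**Figure D4:**
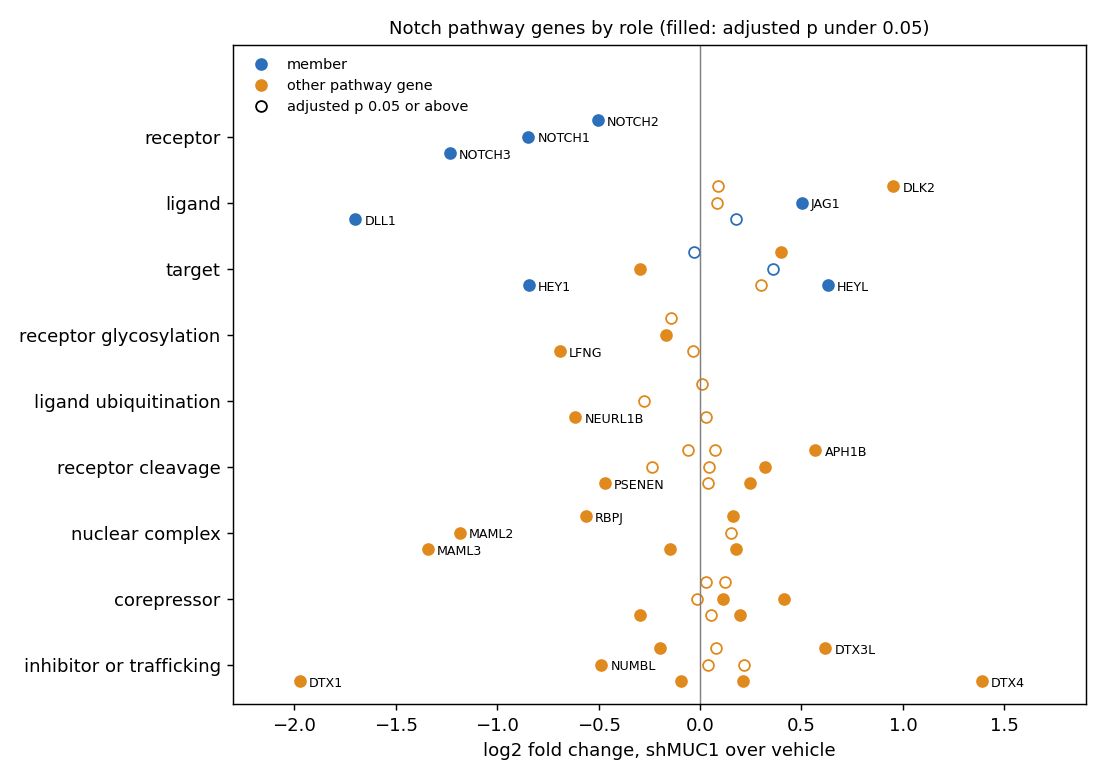
Log2 fold change of shMUC1 over vehicle for the 10 Notch genes (blue) and the 48 other pathway genes tested (orange), 1 point per gene, by role; filled points have an adjusted p under 0.05. The 3 receptors all lie below 0, whereas every other role with more than 1 gene called, apart from receptor glycosylation, holds genes called on both sides of 0.

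The word ATCAGTA in 3′ UTRs was searched because an earlier scan of these same counts had picked it for lower levels, so its shares among called genes repeat that choice and are not independent evidence. Among tested genes with an annotated 3′ UTR (GENCODE 29, longest per gene), 1510 of 13023, or 11.6%, held it, including 20.5% of genes called lower and 8.11% of genes called higher. The targeted gene MUC1 has 29 annotated transcripts, and the word was in the longest annotated 3′ UTR among them, of 731 bases. Whether it lies in the 3′ UTR or in coding sequence of the other MUC1 transcripts was not examined. None of the 10 Notch genes held it, the 5 called lower included. The last 6 bases of the word, TCAGTA, were found 1 time each in NOTCH1, NOTCH2 and HEY1, which were called lower. They were also found 1 time in JAG2, which was not called, and in no other member. The share of all genes that hold TCAGTA was not counted. Of the 48 other pathway genes, 4 held the full word ATCAGTA: RBPJ, MAML1, HEY2 and NCOR1. The sites of RBPJ and MAML1 are shown because these genes of the nuclear complex held the same word and moved in opposite directions, with the word in capitals.
RBPJ: gcttattgtttATCAGTAgttcttttgtc
MAML1: catctgctggcATCAGTAcctggtgttgg

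RBPJ fell and MAML1 rose, whereas HEY2 (log2 fold change 0.30, adjusted p = 0.323) and NCOR1 (log2 fold change 0.05, adjusted p = 0.288) did not pass the test. The word was therefore present in 1 of the 19 Notch pathway genes called lower and in 1 of the 15 called higher.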

How the data were processed

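RNA from MDA-MB-436 cells with the inducible MUC1 shRNA was sequenced after stranded mRNA library preparation. The authors deposited a table of raw read counts by gene symbol for 3 vehicle and 3 shMUC1 libraries. The submitters' processing notes name CASAVA 1.8.2, STAR 2.7.9a, featureCounts, DESeq2 1.24.0 and GRCh38.p7; the annotation release, the strand setting and the counting of read pairs are not given in the sources used here. From 68.85% to 70.53% of values from 1 to 20 counts were even, so halved counts were tried. Among the gene names, 14 read as dates, none of them a gene named here.

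Counts were tested in R 4.3.3 by the quasi-likelihood method of edgeR 4.0.16 (TMM scaling, filterByExpr, group as the only term, two-sided), with Benjamini-Hochberg adjustment over 15355 genes. SEs were derived from the F statistic. DESeq2 1.42.0 and limma 3.58.1 served as alternatives, and the steps were tested on simulated counts. The p-values measure the spread between these cultures, which may be technical. Counting error alone sets a floor of 3 counts, equal to 0.161 CPM in the shallowest library. Correlations of same-numbered libraries (0.00493, -0.0324 and -0.0382) did not pair the samples.

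The 10 members and the lists were chosen with earlier results of these data known. All members were named, as were RBPJ and ADAM10, the gene with the lowest adjusted p in each role, genes called with a fold change over 1.5, and the NOTCH2NL copies; 1 gene that the rule names is not reported here. Gene models were from GENCODE 29 and promoters from RefSeq (GRCh38.p14).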

Additional observations from a re-analysis of the deposited data

How the results depend on the processing

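Across 14 alternatives (scaling, filters, DESeq2, limma-voom, halved counts, a replicate block and leaving out each library), 121 of 137 alternative log2 fold changes of the members kept their direction and side of the threshold, 12 were no longer called, 1 was newly called and 3 changed sign. NOTCH1, NOTCH2, NOTCH3 and JAG1 were called in all 14. The count of members called higher, 2, was 1 with DESeq2, 1 with the replicate block, where HEYL stood at 0.60, and from 1 to 2 with a library left out; 0 passed a fold change over 2. The count called lower, 5, was 3 with a mean of at least 50 counts, since fewer genes were tested, 2 with a fold change over 2, and from 4 to 5 with a library left out. It was also smaller with DESeq2, where HEY1 was not called (adjusted p = 0.0543). With halved counts it was smaller because DLL1 did not pass the filter. Among other pathway genes, 1 rose and 3 fell past a fold change over 2, with DTX1 and MAML3 among those that fell. The log2 fold change of NRARP ran from -0.18 to 0.14 with a library left out and changed sign without vehicle replicate 2 (0.14), shMUC1 replicate 1 (0.01127) and shMUC1 replicate 3 (0.06151). The replicate block changed no other call of a member. The level per kilobase moved by more than 1 SD in 13 of 20 values with the length of the longest transcript. Depth limits DLL1, HEY1, HEYL, DTX1 and MAML3, which had from 2 to 87 counts per library.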
